A study of Homo sapiens with 2 samples.

Results

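The signal recognition particle (SRP) was examined through 10 gene names: its RNA, 7SL, listed as RN7SL1, RN7SL4P and Metazoa_SRP, the protein genes SRP9, SRP14, SRP19, SRP54, SRP68 and SRP72, and SRPRB, which encodes the beta subunit of the SRP receptor. These names matched 232 of the 50867 gene rows: 225 rows of 7SL RNA, 222 of them named Metazoa_SRP, and 7 rows of protein genes. The names were chosen by what they encode, with the counts and FPKM of both libraries already known, so the differences between the libraries are given as a description. RNA came from HCT116, an established human cell line of colorectal cancer. Cells received either control siRNA or PHF5A siRNA, PHF5A being a subunit of the SF3b splicing complex. The labels give neither the siRNA sequences nor the time after transfection. With 1 library per group, 2 in all, no difference could be checked against replicates and none was tested across samples. An effect of PHF5A loss cannot be told apart from other effects of this siRNA, or from variation between cultures or library preparations.

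SRP is a ribonucleoprotein that binds the signal sequence of a secretory or membrane protein as it leaves the ribosome, slows translation, and brings the ribosome to the endoplasmic reticulum (ER). 7SL RNA, which RNA polymerase III transcribes, is its scaffold: SRP9 and SRP14 bind the end called the Alu domain, and SRP19, SRP54 and the SRP68 and SRP72 pair bind the other end, the S domain. At the membrane the particle docks on the SRP receptor, and the ribosome is handed to the Sec61 channel.

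The libraries held 26552789 (control) and 25897412 (knockdown) counts. PHF5A had 367 control and 91 knockdown counts, a direction that matches the labels. The epithelial keratins KRT8, KRT18 and KRT19 had 369.7 to 1046.3 FPKM (counts scaled to gene length and to the library total) in each library, and the 10 epithelial and HCT116 markers summed to 371861 and 354589 counts. Of the others, EPCAM had 412 and 501 counts, CDH1 had 913 and 843, and the intestinal factor CDX2 had 822 and 367, 2.18-fold lower by counts scaled to the library total. CEACAM5, CEACAM6, KRT20 and VIL1 had 0 to 6 counts. All 16 heart muscle markers had counts in the control library, 100075 in sum (0.377% of the library). In the knockdown library 8 of the 16, MYH7 and PLN among them, were at 0 and the sum was 325 (0.00125%). Most of these 325 counts were of TNNI3, which had 334 control and 229 knockdown counts. The 8 fibroblast markers summed to 3499 and 893 counts. COL1A1 held most of the knockdown sum, with 1362 and 786 counts. COL3A1 had 959 and 31 counts, SPARC 621 and 16, COL1A2 352 and 7, PDGFRA 93 and 2, and LUM 60 and 0. PDGFRB (44 and 42) and DCN (8 and 9) differed little. Ratios of counts scaled to the library total (CPM) carry a 95% exact interval. It covers counting error only and not the spread between cultures or library preparations.

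The 7SL counts lay almost wholly in 4 rows, and the sequences of these rows are nearly alike. By gene identifier, the Metazoa_SRP row with the most counts is RN7SL2 (chr14:49862550-49862849, minus strand) and the next is RN7SL3 (chr14:49853616-49853914, minus strand). RN7SL1 lies at chr14:49586580-49586878 on the plus strand, and RN7SL4P, annotated as a pseudogene by RefSeq, at chr3:15738515-15738809 on the plus strand (all GRCh38). They were compared with RN7SL1 base by base, using the transcripts of GENCODE release 29.

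RN7SL2 differed from RN7SL1 by 4 substitutions over 299 bases (98.7% identity) and carried 1 further base. RN7SL3 differed by 7 over 299 bases (97.7% identity), and shared no run longer than 123 bases with either RN7SL1 or RN7SL2. RN7SL4P was compared over its first 232 bases. Within them it differed from RN7SL1 by 6 substitutions and from RN7SL2 by 3, and so was closer to RN7SL2. Its last 63 bases were not compared, since the base-by-base match allowed no gaps. RN7SL5P (chr9:9442060-9442380, plus strand) is described as a contrast and was chosen after its values were seen. It differed from RN7SL1 by 1 substitution over 235 bases, and its last 86 bases were likewise not compared.

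All 4 main rows held more of the knockdown library than of the control. RN7SL2 had 1524010 counts in the control library against 2068475 after knockdown, 5.74% and 7.99% of all counts. By CPM this was 1.39-fold higher (interval 1.389 to 1.395). RN7SL1 had 1088807 and 1538261 counts, 4.10% and 5.94% of the libraries and 1.45-fold higher (1.445 to 1.452). RN7SL4P and RN7SL3 showed the same direction at a lower level. RN7SL4P had 224021 and 321412 counts, 1.47-fold higher (1.463 to 1.479). RN7SL3 had 86287 and 148005 counts, 1.76-fold higher (1.744 to 1.774), a ratio whose interval lay above those of the other 3 rows. On the FPKM scale with 1 added to each value, the log2 ratios of knockdown to control were 0.48 for RN7SL2, 0.53 for RN7SL1, 0.56 for RN7SL4P and 0.81 for RN7SL3.

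**Figure D1:**
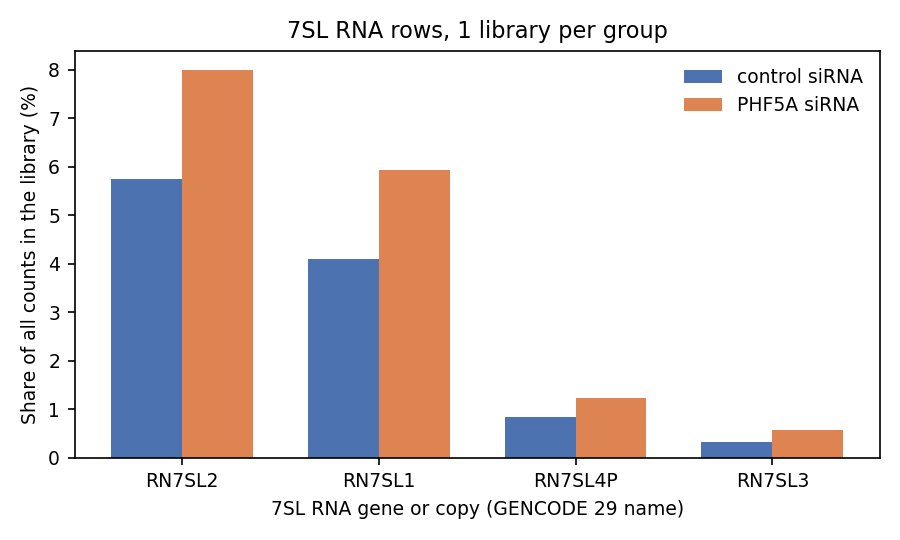
Share of all counts in each library (percent, vertical axis) for the 4 main 7SL rows, with the control library in blue and the PHF5A siRNA library in orange, 1 library each. Each row takes a larger share after PHF5A siRNA, from 5.74% to 7.99% for RN7SL2 and from 0.325% to 0.572% for RN7SL3.

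The second row named RN7SL1, an overlapping entry 1 base longer, had 0 counts in both libraries. All 906 rows of the 7SL family, the numbered RN7SL pseudogenes included, summed to 2923954 (control) and 4077049 (knockdown) counts. That was 11.01% and 15.74% of the libraries, with exact intervals of 10.9999% to 11.0238% and 15.729% to 15.757%. The sum was 1.43-fold higher (interval 1.4275 to 1.4318). The division of the sum among its rows differed little between the libraries: RN7SL2 held 52.1% and 50.7% of it, RN7SL1 held 37.2% and 37.7%, RN7SL4P held 7.66% and 7.88%, and RN7SL3 held 2.95% and 3.63%. How reads with several matches were counted was not stated, so the sum is firmer than the split.

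The 902 remaining rows of the family were nearly silent, with 829 and 896 counts in sum over 242 rows that had any. Of the 222 Metazoa_SRP rows, 200 were at 0 in both libraries, and outside RN7SL2 and RN7SL3 the highest count was 12. The remaining rows were compared by the longest run of bases shared without a mismatch with RN7SL1, RN7SL2 or RN7SL3, in bands chosen after the values were seen. For 7 rows with a run of at least 50 bases the counts were 347 and 444, a CPM ratio of 1.31 (interval 1.14 to 1.51). For 74 rows with a run of 30 to 49 bases they were 264 and 272, a ratio of 1.06 (0.889 to 1.26). For 156 rows with a shorter run they were 210 and 175, a ratio of 0.854 (0.695 to 1.05), and the last 2 intervals include 1. Pooled, the copies most like 7SL thus had a ratio above 1, as the main rows had. In the other bands the pooled ratio could not be told from 1 at this depth. Single rows weighed on these sums. RN7SL5P held 222 and 271 counts of the first band. RN7SL767P, with a run of 47 bases and a ratio of 1.35, held 123 and 162 counts of the second.

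RN7SL4P and RN7SL5P, both long copies of the main genes, differed widely in level. RN7SL5P shares a run of 209 bases with RN7SL1, longer than the 192 bases that RN7SL4P shares with RN7SL2. Yet RN7SL5P had 222 and 271 counts, where RN7SL4P had 224021 and 321412. RN7SL5P was 1.25-fold higher in the knockdown library (interval 1.044 to 1.501). RN7SL767P, with 123 and 162 counts, was 1.35-fold higher (1.06 to 1.72), and RN7SL674P, with 57 and 82 counts, 1.48-fold (1.04 to 2.11). RN7SL396P had 47 and 64 counts and a ratio of 1.396 (0.943 to 2.08), an interval that includes 1. These copies were named after their values were seen.

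**Figure D2:**
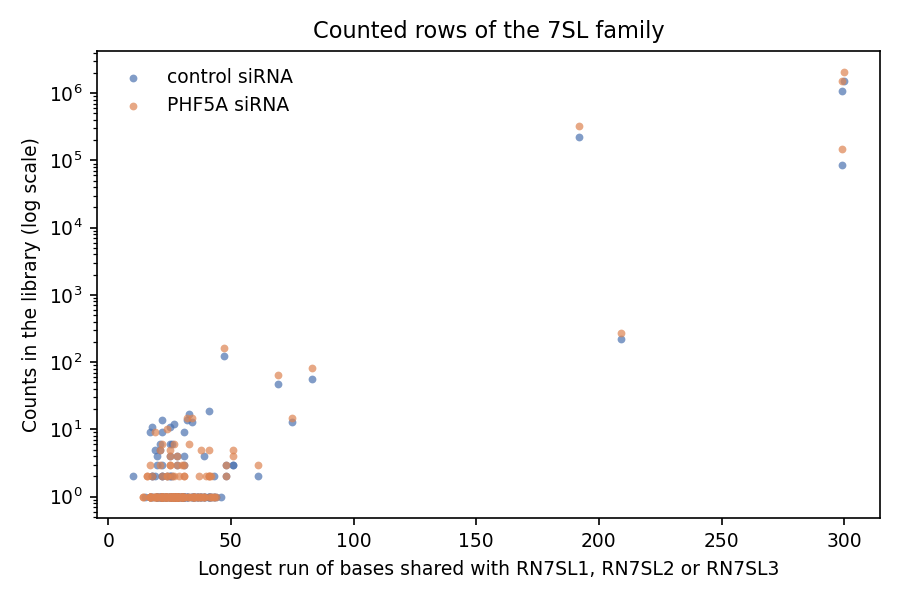
Counts in each library (vertical axis, log scale) against the longest run of bases shared with RN7SL1, RN7SL2 or RN7SL3 (horizontal axis) for the counted rows of the 7SL family that have a sequence, control in blue and PHF5A siRNA in orange. RN7SL4P, with a run of 192 bases, lies above RN7SL3 in both libraries, while RN7SL5P, with 209 bases, has 222 and 271 counts. Rows at 0 in a library are not drawn for it.

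RN7SL1 lies inside the span of the ribosomal protein gene RPS29 and RN7SL4P inside that of ANKRD28, each on the opposite strand. RPS29 had 1172 and 1038 counts and ANKRD28 had 177 and 60. These counts are far below those of the 7SL rows.

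The protein genes did not share the direction of the RNA as a group. Of the 7, 6 reached 1 FPKM in the higher library, SRP54 only through the knockdown library, and SRP19 reached it in neither. No member row was at least 2-fold higher or lower on the FPKM + 1 scale. Among all 8957 expressed genes, the share at least 2-fold higher was 2.53%, and the share lower by that much was 6.2%. At 1.5-fold, 1 member row was higher (RN7SL3) and 1 lower (SRP68), where 8.45% and 18.2% of expressed genes were. The median log2 ratio of the 6 expressed protein genes was -0.16, beside -0.15 for all expressed genes, and 3 of the 6 lay above that median.

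SRP9 and SRP14 form the heterodimer of the Alu domain, the part that slows elongation. SRP9 (chr1:225777813-225790466) had 389 control and 346 knockdown counts, or 5.59 and 5.10 FPKM. Its CPM ratio was 0.912 (interval 0.787 to 1.06). SRP14 (chr15:40035739-40039188) had 194 and 229 counts, or 1.60 and 1.93 FPKM, with a ratio of 1.21 (0.995 to 1.47). Both intervals include 1, so neither difference was detectable at this depth. The pseudogene SRP9P1 had 33 and 20 counts. SRP14-AS1, named as antisense to SRP14, had 116 and 97.

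SRP68 was the member that differed most among the S-domain proteins. With SRP72 it forms a heterodimer that binds 7SL. SRP68 (chr17:76038775-76072653) had 2980 control and 1474 knockdown counts, or 8.92 and 4.53 FPKM. By CPM it was 1.97-fold lower (interval 1.85 to 2.10), and on the FPKM + 1 scale its log2 ratio was -0.84. SRP72 (chr4:56466915-56503680) had 472 and 358 counts, or 2.32 and 1.81 FPKM, and was 1.29-fold lower (1.12 to 1.48). The intervals of the pair did not overlap, so SRP68 was lower by more than SRP72 beyond counting error in these libraries. The pseudogenes SRP68P1, SRP68P2 and SRP68P3 had 0 or 1 count in each library. ZACN, which overlaps the SRP68 locus on the other strand, had 4 and 3 counts.

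SRP54 went the other way. It is the GTPase subunit that recognises the signal sequence and pairs with the receptor. SRP54 (chr14:34981957-35029567) had 177 and 253 counts, or 0.891 and 1.31 FPKM, and was 1.47-fold higher by CPM (interval 1.20 to 1.79). SRP54-AS1, overlapping it on the other strand, had 1 and 3 counts. SRP19, which helps SRP54 onto the RNA, had 60 and 77 counts at chr5:112861222-112869788, or 0.308 and 0.405 FPKM. Its ratio was 1.32 (0.927 to 1.88), an interval that includes 1.

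The receptor subunits stood near the median of the expressed genes. SRPRB (chr3:133784033-133825772), the membrane anchor of the receptor, was 1.23-fold lower (interval 1.05 to 1.43), with 377 and 300 counts or 2.60 and 2.12 FPKM. Its end overlaps RAB6B on the other strand, which had 238 and 100 counts, and the strand setting used in counting was not stated. The alpha subunit, listed as SRPR and not among the 10 names, had 4512 and 3810 counts and was 1.16-fold lower (1.11 to 1.21).

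**Figure D3:**
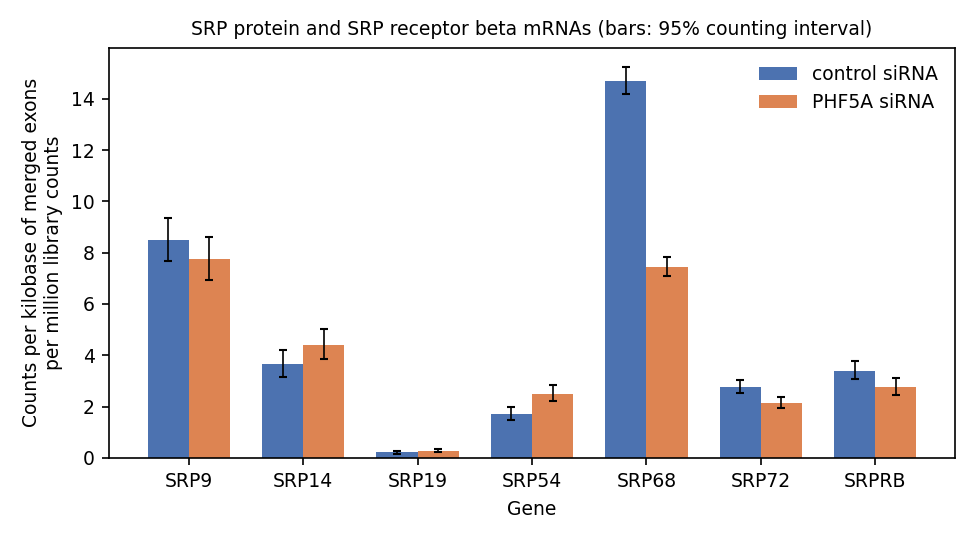
FPKM recomputed on merged exons (vertical axis) for the 6 SRP protein genes and SRPRB, control in blue and PHF5A siRNA in orange. Error bars are 95% exact Poisson intervals for counting error in 1 library each. SRP68 has the highest control bar and the widest gap between the libraries, and SRP19 is lowest in both.

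Levels of different genes depended on the gene length the FPKM used. For 86% of 15314 protein-coding genes with control counts, the length implied by the deposited values matched, within 1%, the sum of all distinct annotated exons of GENCODE 29. In that sum bases shared by overlapping exons are counted again for each exon, whereas the length of the merged exons matched for 7.79%. The deposited FPKM of a gene with many transcript forms is therefore low beside that of the single-exon 7SL genes. The implied length was 2.28 times the merged length for SRP14, 1.92 times for SRP54 and 1.65 times for SRP68, with a median of 1.54 over protein-coding genes. For SRP19 it was 0.697 times, and for SRP19 and SRP72 it did not match the summed exons of GENCODE 29 either. Ratios between the libraries do not depend on the length, other than through the added 1.

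On merged exons the order of the protein genes in the control library was SRP68 (14.7 FPKM), SRP9 (8.48), SRP14 (3.64), SRPRB (3.40), SRP72 (2.77), SRP54 (1.71) and SRP19 (0.215). In the knockdown library SRP9 (7.73) and SRP68 (7.45) led, followed by SRP14 (4.41), SRPRB (2.77), SRP54 (2.503), SRP72 (2.15) and SRP19 (0.283). The counting intervals of SRP9 and SRP68 overlapped in the knockdown library, as did those of SRPRB and SRP54 and those of SRP54 and SRP72. In the control library those of SRP14 and SRPRB overlapped. For SRP19 and SRP72 the implied length did not match GENCODE 29, so their values and places on merged exons are uncertain. The merged length of SRP19 exceeded its implied length, so its values here lie below the deposited 0.308 and 0.405 FPKM. The counting intervals do not cover this uncertainty of length. The transcripts of most members are poor in G and C: the longest transcript of SRP9 had 37.1% GC and that of SRP72 had 40.0%, at the percentiles 1.47 and 6.25 of expressed protein-coding genes, whose median was 53.8%. SRP68, with 51.2% (percentile 39.9), had the most GC of the 7 and also the most counts. The part of base composition in these levels was not tested. The protein genes carry 4 (SRP9) to 19 (SRP72) exons in the annotated transcript with the most exons, SRP68 carries 16, and the 7SL genes have 1.

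Set against the RNA, there were 629 counts of 7SL for each count of the 7 protein genes for the control library and 1342.5 for the knockdown. These figures use raw counts without a correction for gene length, so they do not give ratios of molecules. SRP68 held 2980 of the 4649 protein-gene counts in the control library and 1474 of 3037 after knockdown. Without it the figures were 1751.9 and 2608.5, so the ratio of RNA to protein-gene counts differed 1.49-fold between the libraries without SRP68 and 2.13-fold with it. The 6 protein genes other than SRP68 had 1669 and 1563 counts in sum, a CPM ratio of 0.960 (interval 0.896 to 1.03).

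The direction of the 7SL rows did not depend on the scaling of the libraries tried, but its size did. 7SL is part of the library total by which every value is divided, and protein-coding genes as a class made up 78.4% of control counts but 70.2% after knockdown. The log2 ratio of the 7SL sum was 0.52 by the deposited totals, 0.59 with 7SL taken out of the totals, and 0.67 with totals of protein-coding genes alone. With each library rescaled to an equal FPKM sum (TPM) it was 0.09, on a scale that put the median of expressed genes at -0.47. On the TPM scale 1 of the protein genes, SRP68, was at least 2-fold lower and 0 were higher, beside 14.5% lower and 1.11% higher among all genes of at least 1 TPM. SRP68, SRP72 and SRPRB had log2 ratios below 0 and SRP54 above 0 under all 6 scalings (with 1 added to each value), SRP68 between -1.22 and -0.61 and SRP54 between 0.07 and 0.43. SRP14 and SRP19 were above 0 in 5 and below it with TPM, and SRP9 was above 0 in 3 and below it in 3. With the heart muscle markers removed from the totals the log2 ratio of the 7SL sum was 0.51. These markers were 0.377% of control counts, so removing them could change the totals only slightly. It therefore cannot measure the part of the heart muscle RNA in the differences of the members. That part, and the part of the lower CDX2, was not tested.

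**Figure D4:**
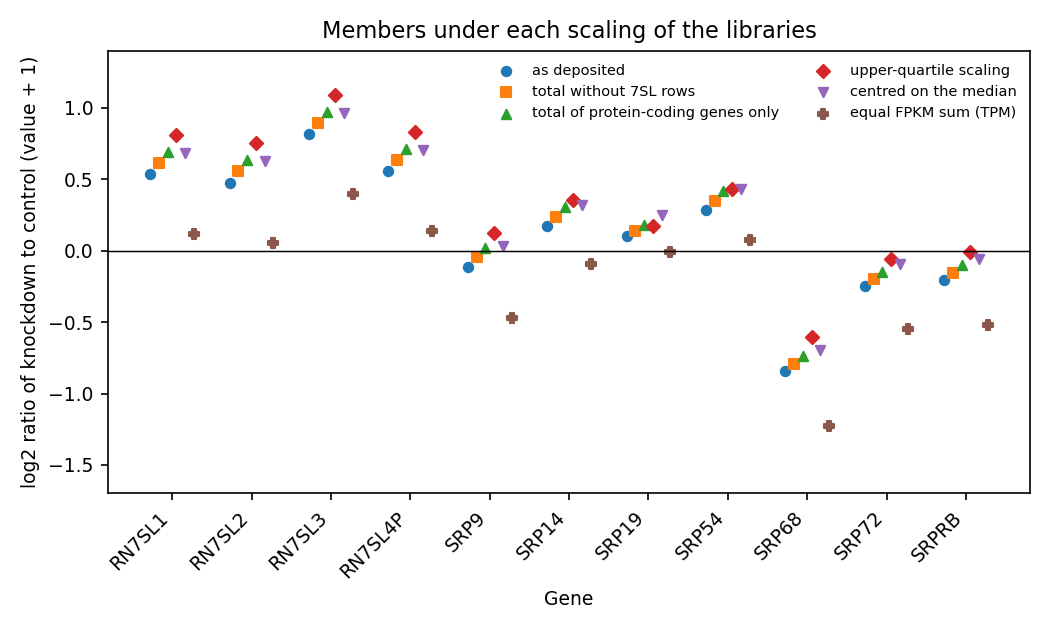
Log2 ratio of knockdown to control (vertical axis, 1 added to each value) for the 4 main 7SL rows and the 7 protein genes under 6 scalings of the 2 libraries, marked by symbol. The 4 7SL rows and SRP54 lie above 0 and SRP68, SRP72 and SRPRB below 0 under each of the 6, while SRP9, SRP14 and SRP19 cross 0.

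RNA polymerase III also makes RPPH1, RN7SK and RMRP, the RNAs of RNase P, of the 7SK particle and of RNase MRP. The 7SL sum and RPPH1 had nearly the same ratio: the RPPH1 rows had 695124 and 961534 counts, 1.42-fold higher (interval 1.414 to 1.423). There were 4.21 counts of 7SL per RPPH1 count in the control library and 4.24 after knockdown. Against RN7SK the figures were 3.80 and 2.49, since RN7SK, with 768786 and 1635974 counts, was 2.18-fold higher. Against the summed RMRP rows, with 236430 and 78580 counts and 2.93-fold lower, they were 12.4 and 51.9. RMRP has 2 overlapping rows that went opposite ways, from 236402 to 46866 counts and from 28 to 31714, and the cause was not tested. These polymerase III RNAs therefore did not share a single ratio. Of 30 genes for the polymerase and its factors, 19 were expressed, with a median log2 ratio of -0.18. SNAPC2, a subunit of a promoter factor of the polymerase, had 13.6 and 28.7 FPKM and was 2.11-fold higher (1.96 to 2.26). SNAPC4, the other expressed subunit of this factor, had 13.1 and 9.16 FPKM and was 1.43-fold lower (1.33 to 1.54). The polymerase subunit gene POLR3C was 2.30-fold lower by CPM (1.88 to 2.82), at 3.26 and 1.42 FPKM.

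Protein targeting to the ER and translocation were described by 9 lists with 57 genes, the SRP proteins and receptor included. Among the 9 are the tail-anchored insertion route, which works without SRP, and a complex that competes with SRP for ribosomes. Of the 57 genes, 46 were expressed, with a median log2 ratio of -0.22, beside -0.15 for all expressed genes. Of the 46, 19 lay above -0.15. At 2-fold, 1 gene was higher (EMC6) and 1 lower (SSR3), where 2.53% and 6.2% of expressed genes were. At 1.5-fold, 1 was higher and 9 lower, SRP68 among the 9, beside 8.45% and 18.2% of all expressed genes. SSR3, a subunit of the translocon-associated TRAP complex, was 3.66-fold lower (interval 3.25 to 4.14), with 1273 and 339 counts or 6.70 and 1.83 FPKM. Its partner SSR4 was 1.346-fold higher (1.291 to 1.402), while SSR2 was 1.27-fold lower (1.23 to 1.32). SSR4 overlaps IDH3G on the other strand, which had 2448 and 3008 counts. EMC6, a subunit of the complex that inserts membrane proteins, had 32.2 and 85.6 FPKM and was 2.66-fold higher (2.48 to 2.84).

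In the Sec61 list, SEC61A1, the pore subunit that takes the ribosome from the SRP receptor, was 1.62-fold lower (interval 1.58 to 1.67), at 44.9 and 27.7 FPKM. It overlaps RUVBL1 on the other strand, which had 2276 and 1923 counts. TRAM2 was 1.83-fold lower (1.63 to 2.05), and SEC61G was 1.04-fold lower, with an interval that includes 1 (0.818 to 1.32). Of the 10 expressed genes of the oligosaccharyltransferase, which adds glycans to arriving proteins, 2 lay above the median of expressed genes. DAD1 was the lowest, 1.63-fold lower (1.55 to 1.72), and KRTCAP2 and RPN1 were 1.42-fold and 1.38-fold lower. HM13, the signal peptide peptidase, was 1.89-fold lower (1.81 to 1.97), and SPCS3 and SPCS1 of the signal peptidase were 1.74-fold and 1.37-fold lower. SPCS3 reached 1 FPKM only in the control library (1.20 and 0.690 FPKM). BTF3, the beta subunit of the nascent polypeptide-associated complex (NAC) that competes with SRP for ribosomes, was 1.85-fold lower (1.74 to 1.98), and its partner NACA 1.10-fold (1.01 to 1.19). In the tail-anchored insertion route, which works without SRP, SGTA was 1.33-fold higher and UBL4A and ASNA1 were 1.57-fold and 1.28-fold lower. In the EMC, EMC4 and EMC7 were 1.74-fold and 1.47-fold lower.

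Genes drawn up for assembly and export of SRP RNA went both ways: RAN, the GTPase of nuclear transport, was 2.09-fold lower (interval 2.01 to 2.17), XPO5 was 1.77-fold lower and NPM1 1.55-fold higher. RAN was the 1 of its 5 expressed genes past 2-fold. XPO5 overlaps POLR1C on the other strand, which had 5459 and 3084 counts, and the strand setting was not stated. Of 30 abundant secreted, membrane and ER proteins chosen as SRP clients, 27 were expressed, with a median log2 ratio of -0.01. The 3 at least 2-fold lower were SLC2A1 (2.80-fold, 2.74 to 2.87), CD9 (2.26-fold, 2.11 to 2.43) and ITGB4 (2.13-fold, 2.09 to 2.17), and none was at least 2-fold higher, beside 6.2% lower and 2.53% higher among all expressed genes.

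**Figure D5:**
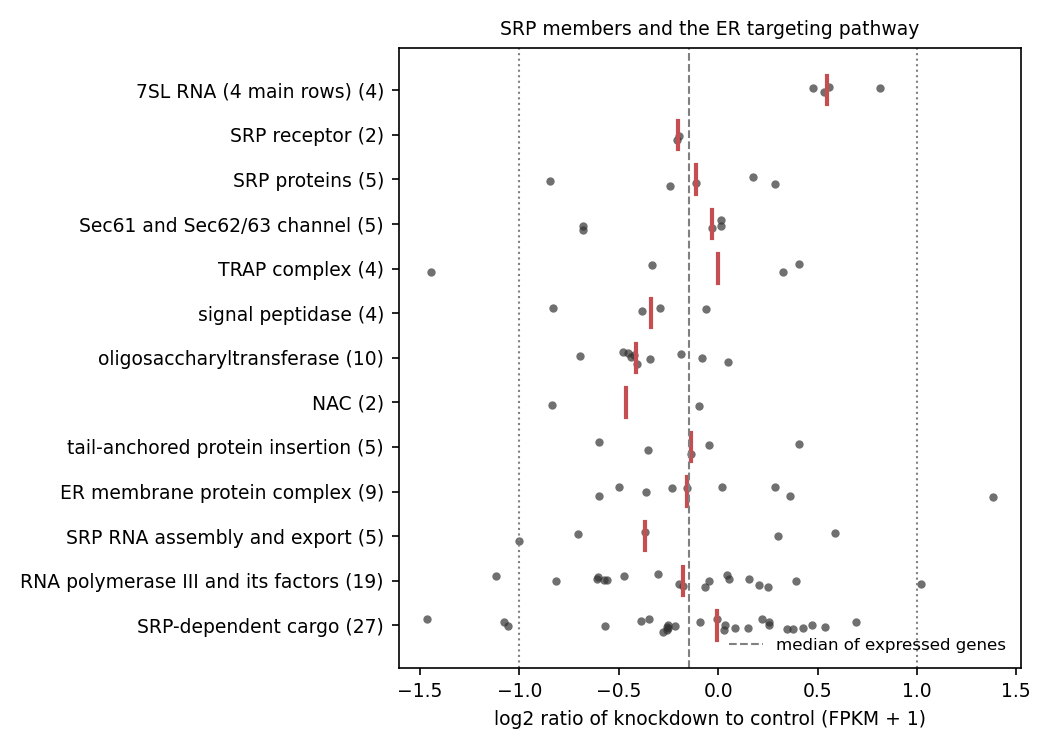
Log2 ratio of knockdown to control on the FPKM + 1 scale (horizontal axis) for the 4 main 7SL rows and the expressed genes of each list, with the number of genes in parentheses. Each point is a gene, red bars are list medians, the dashed line is the median of expressed genes (-0.15) and dotted lines mark 2-fold. The 7SL points lie between 0.48 and 0.81, and SSR3 and EMC6 are the points past 2-fold among the 9 lists from the SRP receptor to the ER membrane protein complex.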

How the data were processed

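Libraries came from total RNA by a TruSeq Stranded kit, per the labels' protocols, and HISAT2 2.0.4 and Cuffdiff were used with hg38 (GRCh38), per the submitters' processing notes. The annotation, the strand setting and how multiply matching reads were counted remain not given in the sources used here. Each gene row of the deposited table held an FPKM and a raw count per library, per the file headers. Of 50869 lines, 2 belonged to a broken entry and were left out. Identifiers were matched to GENCODE release 29 (50110 rows; 757 unmatched), which gave gene types, exons and the 7SL transcripts that were compared. The members and lists were chosen with earlier results of these data known. Log2 ratios used FPKM with a pseudocount of 1. Genes with 1 FPKM or more in either library were taken as expressed, and a call means at least 2-fold by size alone. CPM ratios carry 95% exact conditional binomial (Clopper-Pearson) intervals. These treat reads as independent and cover counting error only. Reads are not independent molecules, so the intervals may be too narrow. Genes named were all members, 7SL rows of at least 1000 counts over both libraries, RN7SK, RPPH1, RMRP and PHF5A. Per list, the 3 expressed genes farthest from a log2 ratio of 0 were also named. SNAPC4 was added after its values were seen, for comparison with SNAPC2. The results of the epithelial, heart muscle, fibroblast and blood marker lists are given by their sums: blood markers had 551 and 415 counts. Single markers are given beside some sums, and TNNI3 and the single fibroblast markers were added after the values were seen. Alternatives were other pseudocounts (0.1 and 0.5), filters, scalings, CPM with 0.5 counts added, and a 1.5-fold threshold. Merged exon lengths and totals without heart muscle markers were added after the values were seen. Some gene results and all sequences are not reported here. The calling was tested on simulated data. Software was Python 3.11.15 with matplotlib 3.10.9, scipy 1.17.1, pandas 2.3.3 and numpy 2.4.6.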

Additional observations from a re-analysis of the deposited data

How the results depend on the processing

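No paired analysis was possible because each group had 1 library. The log2 ratio of the 7SL sum (0.52) was 0.59 with 7SL left out of the totals, 0.67 with protein-coding totals, 0.66 after centring on the median of expressed genes, 0.79 with upper-quartile scaling and 0.095 with TPM. It was 0.51 for RN7SL1, RN7SL2 and RN7SL3 alone and 0.51 without the heart muscle markers in the totals, the latter chosen after seeing the data. The median log2 ratio of the SRP protein genes (-0.16) was -0.0403 with protein-coding totals, -0.0109 after centring, 0.055 with upper-quartile scaling and -0.50 with TPM, where the median of expressed genes was -0.02, 0, 0.09 and -0.47. It kept within counting error under the other alternatives. With TPM 1 of the protein genes, SRP68, was at least 2-fold lower, and of the ER targeting genes 0 were higher and 7 lower, beside 1 and 1 as deposited. Over all genes of at least 1 TPM, 1.11% were higher and 14.5% lower on that scale. A 1.5-fold threshold gave 9 lower of 46, where 18.2% of all expressed genes were. The number of protein genes at least 2-fold higher was 0 under each alternative. Of 70 log2 ratios of single protein genes under an alternative, 60 lay within the counting interval of the value as deposited. Most of the rest were of SRP68, the member protein gene with the most counts, and the others were of SRP9, SRP72 and SRPRB. A gene with few counts has a wide interval, so lying within it does not measure stability. With 60 and 77 counts, SRP19 was limited by depth.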
